A study of Mus musculus with 25 samples.

Results

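Ankrd1, Ankrd2, Csrp3, Xirp1, Enah and Mybph encode proteins of the sarcomere, or proteins recruited to it, whose genes respond to mechanical strain of muscle. The 6 genes were followed in mouse tibialis anterior, which lies on the shin and is made mostly of fast fibres, through the first week after injury. Each gene was read from the probe sets that the platform annotation assigns to that symbol alone, and where there were several the probe set with the highest mean level over all 25 arrays stood for the gene. They are 6 of 8251 genes named on the array and of 6919 that passed a filter on low signal. All 6 passed, and the probe set of each gene was above the filter level on all 25 arrays, so no gene entered only through the groups in which it was high. Muscles of female C57BL/6J mice aged 2 to 3 months were injured in 1 of 2 ways. Freeze injury was made with a steel probe of 6 mm diameter at dry ice temperature, held on the muscle for 10 s. Contraction injury was made by 150 eccentric contractions in the living animal, each a lengthening of the muscle while it is active. Muscles were taken at 6 hours (3 freeze and 3 contraction arrays), 1 day (3 and 2), 3 days (3 and 3) and 7 days (2 and 3), and 3 muscles without injury served as controls. The series sets out to compare the injuries, and each injured group can also be set against control and against the time before it.

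Striated muscle senses stretch at the elastic I-band of titin and at the Z-disc, where thin filaments of neighbouring sarcomeres are anchored. The ankyrin repeat proteins made from Ankrd1 and Ankrd2 bind titin in the I-band and also enter the nucleus, and Csrp3 makes muscle LIM protein, which sits at the Z-disc. Xirp1 makes Xin, a protein that binds actin filaments and gathers where myofibrils are damaged. Enah makes Mena, an Ena/VASP protein that lengthens actin filaments and can bind Xin. Mybph makes myosin binding protein H, a thick filament protein of the A-band.

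The sequence upstream of Ankrd1 is shown because that gene rose furthest, and that of Mybph because its course stood apart from the other 5. Both windows are RefSeq sequence of build GRCm38.p6, run from 250 bases before to 50 bases after the annotated start, and are given 5′ to 3′ on the gene's strand. Capitals mark the M-CAT letters GGAATG, the element that TEAD factors bind, and in Ankrd1 also the overlapping letters GAANNTTC that form a short heat shock element. The Ankrd1 window is chr19:36119795-36120094, minus strand, and the Mybph window is chr1:134193198-134193497, plus strand.
Ankrd1: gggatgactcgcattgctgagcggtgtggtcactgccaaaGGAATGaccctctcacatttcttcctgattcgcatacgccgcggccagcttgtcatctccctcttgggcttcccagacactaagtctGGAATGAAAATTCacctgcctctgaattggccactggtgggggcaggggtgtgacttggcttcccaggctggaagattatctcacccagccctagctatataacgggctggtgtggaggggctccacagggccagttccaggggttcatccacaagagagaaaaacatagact
Mybph: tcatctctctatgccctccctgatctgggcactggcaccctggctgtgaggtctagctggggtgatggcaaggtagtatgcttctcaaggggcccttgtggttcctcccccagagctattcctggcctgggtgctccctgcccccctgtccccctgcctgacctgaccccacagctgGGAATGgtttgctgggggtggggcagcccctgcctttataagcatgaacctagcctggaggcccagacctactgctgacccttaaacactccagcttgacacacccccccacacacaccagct
In Ankrd1 the M-CAT letters began 210 and 123 bases before the start, and the heat shock match began 118 bases before it, inside the same capital run. In Mybph they began 73 bases before the start. RefSeq windows were at hand for 5 of the 6 genes (Xirp1 was not in the table). Over both strands, M-CAT was found in 2 of the 5 genes, against 14.66% of 32851 promoter windows of the same length. The heat shock letters were found in Ankrd1 and in 1 of 2 Csrp3 windows, against 7.86% of promoters, and the E-box letters CANNTG, which myogenic factors bind, in all 5, against 72.31%. The AP-1 letters TGANTCA (7.808% of promoters), the CRE letters TGACGTCA (1.79%), the CArG box of SRF (1.629%) and the MEF2 box (3.187%) had no match in these windows. A match describes the letters and does not show that a factor binds there.

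Signals are on a linear scale, scaled by the authors to a like level on every array, so that the mean after trimming lay between 150.089 and 150.127. Differences are given on the log2 scale of signal plus 13 units, ± SE, from 1 limma model of all 25 arrays. This scale understates changes of dim genes. A gene is said to rise or fall where the p-value adjusted over all 9506 probe sets tested (Benjamini-Hochberg) was under 0.05. The labels do not say that samples came from separate mice, so the p-values speak only of the spread among these samples, which may be technical. All 8 comparisons with control use the same 3 controls. Of 13 fast fibre markers, such as Ckm and Myh4, 12 had a probe set, and all 12 were above the 40th percentile on all arrays. So were at least 7 of 8 slow fibre markers in each group. Passing this level shows that the genes were detected and does not tell a fast muscle from a slow one.

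The freeze array at 3 days labelled sample 436 stood apart. Its correlation across probe sets was 0.804 and 0.803 with the other arrays of its group, which correlated at 0.976 with each other, and 0.947 to 0.952 with the controls. It was kept in its labelled group. Results without it are given beside many, but not all, of those that involve freeze at 3 days or change their call. The actin 3′/5′ ratio, a sign of RNA integrity, was 0.657 to 0.955 (6 hours), 1.01 to 1.31 (1 day), 0.741 to 1.09 (3 days) and 0.776 to 0.808 (7 days) after freeze. It was 0.572 to 0.669, 0.617 to 0.641, 0.923 to 1.21 and 0.522 to 0.716 at the same times after contraction, against 0.560 to 0.595 in controls. The freeze value of 0.741 at 3 days was that of sample 436, and samples 450 and 468 had 1.06 and 1.09. The Gapdh 3′/5′ ratio was 0.797 to 1.12 over the injured groups, against 0.869 to 1.13 in controls. The part of these ratios in the results was not tested.

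All 6 genes changed after injury by limma's F test over the 8 injured groups (26.2% of probe sets did), with the smallest adjusted p in Xirp1 (3.04e-10) and Ankrd1 (4.53e-10) and the largest in Mybph (1.13e-06). After freeze, 5 of 6 rose at 6 hours, where 3.33% of probe sets rose, and 4 rose at 1 day, against 9.15%. By 3 days only Ankrd1 was above control, with 9.68% of probe sets higher, and at 7 days Ankrd1 and Csrp3 were, with 3.65% higher. After contraction, 5 of 6 rose at 6 hours (1.63% of probe sets), 6 of 6 at 1 day (1.63%), 5 of 6 at 3 days (5.67%) and Ankrd1 alone at 7 days (0.473%). The single fall was Mybph at 1 day after freeze, where 5.06% of probe sets fell. The median difference of the 6 genes at 6 hours was 2.32 after freeze, against -0.04 over all probe sets tested, and 3.83 after contraction, against -0.08. At 3 days it was -0.02 after freeze (0.02 without sample 436), against -0.09, and 1.73 after contraction, against -0.06. Without sample 436, Mybph also fell at 6 hours after freeze, Xirp1 fell at 3 days, Enah and Mybph rose at 7 days, and Csrp3 and Mybph rose at 7 days after contraction. In those comparisons without it, 5.01% and 20.9% of probe sets fell, and 11.8% and 2.26% rose.

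**Figure D1:**
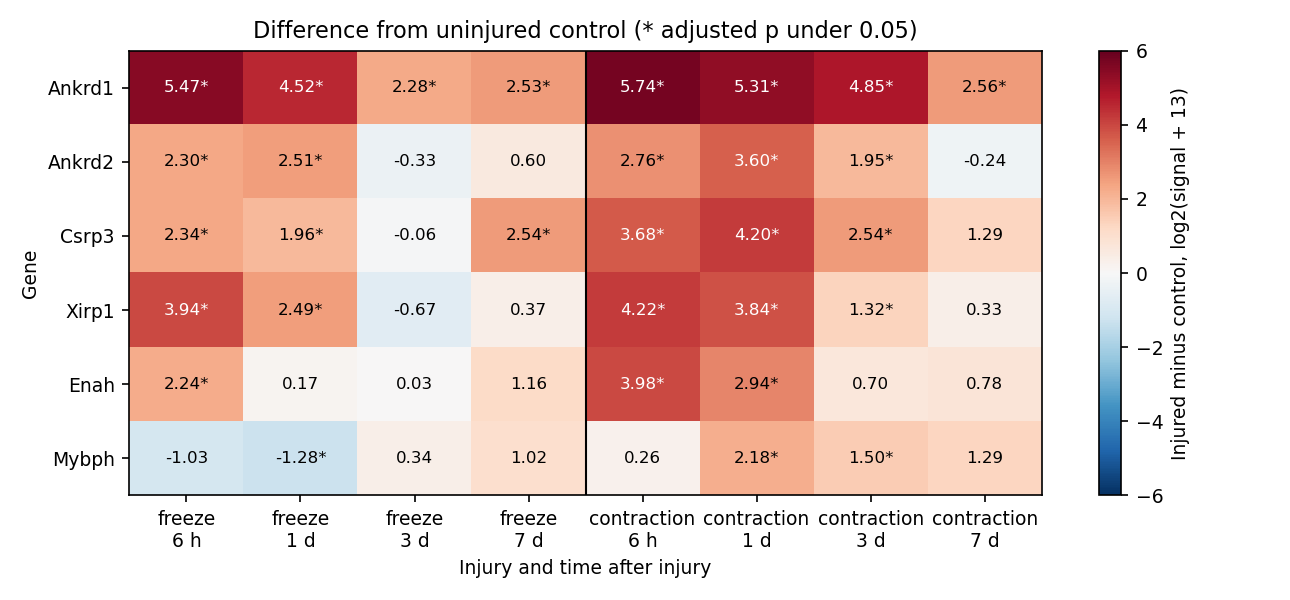
Differences of the 6 genes (rows) from uninjured control on the scale log2(signal + 13) in the 4 freeze groups (left) and the 4 contraction groups (right), from 6 hours to 7 days, with the value in each cell and an asterisk at an adjusted p under 0.05. Red is higher and blue lower than control; Ankrd1 carries an asterisk in all 8 columns, and Mybph is the only gene with a negative value at 6 hours and 1 day after freeze.

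Ankrd1, the titin-binding ankyrin repeat gene that also acts on transcription, was above control in every injured group. After freeze its signal was 6339, 5739.6 and 5616 at 6 hours, 3692, 2438 and 3099 at 1 day, 276, 961 and 955 at 3 days and 744 and 770.4 at 7 days. After contraction it was 6731, 6982 and 7658 at 6 hours, 5759 and 4800.4 at 1 day, 4167, 2541 and 5304 at 3 days and 790.2, 767 and 754 at 7 days, against 92.5, 170.2 and 109 in controls. No injured array, sample 436 with 276 units included, came down to the highest control. At 6 hours the rise was 44.3-fold after freeze (log2 5.47 ± 0.34, adjusted p = 1.14e-09) and 53.5-fold after contraction (5.74 ± 0.34, 2.98e-10). At 3 days it was 2.28 ± 0.34 after freeze (adjusted p = 0.00342), or 2.87 ± 0.24 (3.4e-09) without sample 436, and 4.85 ± 0.34 after contraction (2.42e-08). At 7 days it was 5.78-fold above control after freeze (adjusted p = 0.000633) and 5.88-fold after contraction (0.000444). In the order of group means the 2 groups at 7 days were neighbours whose arrays overlapped. All 5 groups with higher means, those at 6 hours and 1 day and contraction at 3 days, lay above them without overlap.

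Ankrd2, the relative of Ankrd1 found mainly in skeletal muscle, rose early, and at 7 days its arrays overlapped the controls. After freeze its signal was 3296, 2652 and 3915 at 6 hours, 4381, 2692 and 4471 at 1 day, 573, 449.5 and 525 at 3 days and 797 and 1229 at 7 days. After contraction it was 5403, 3454 and 4836 at 6 hours, 7918 and 8168 at 1 day, 2126, 2023 and 3840.2 at 3 days and 292, 824 and 672 at 7 days, against 1319, 480.4 and 430.4 in controls. The 2 contraction arrays at 1 day were the highest of all 25, and control 1 was well above the other controls, while contraction sample 425 at 7 days, with 292 units, was below all 3. The rise at 1 day was 5.68-fold after freeze (2.51 ± 0.39, adjusted p = 0.000311) and 12.2-fold after contraction (3.60 ± 0.43, 1.46e-05). At 3 days freeze had a difference of -0.33 ± 0.39 (-0.41 ± 0.41 without sample 436), with arrays that overlapped the controls, while contraction was still higher by 1.95 ± 0.39 (adjusted p = 0.00561). At 7 days the arrays of both injuries overlapped the controls, with differences of 0.60 ± 0.43 after freeze and -0.24 ± 0.39 after contraction.

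Csrp3, the gene of muscle LIM protein at the Z-disc, rose, returned and rose again after freeze. After freeze its signal was 1767, 3571 and 2717 at 6 hours, 2529.8, 1216 and 2523 at 1 day, 504, 522 and 412 at 3 days and 2425 and 3636 at 7 days. After contraction it was 6794, 5253 and 7799 at 6 hours, 9646 and 9113 at 1 day, 2441, 3880.4 and 2776 at 3 days and 1116, 1428 and 1193 at 7 days, against 765, 422 and 384 in controls. The 3 freeze arrays at 3 days, sample 436 among them, lay within the control range, and the arrays of the other 7 injured groups all lay above it. The peak after contraction was at 1 day, 18.3-fold above control (4.20 ± 0.35, adjusted p = 1.04e-07). After freeze the difference was 2.34 ± 0.31 at 6 hours (adjusted p = 3.02e-05), -0.06 ± 0.31 at 3 days (0.904) and 2.54 ± 0.35 at 7 days (0.00018). The step between 3 and 7 days, 2.61 ± 0.35, passed the test (adjusted p = 0.00023, where 0.715% of probe sets rose), and without sample 436 it was 2.65 ± 0.36 (2.4e-05, where 8.27% rose). At 7 days after contraction the difference was 1.29 ± 0.31 (adjusted p = 0.0715, and 0.0159 without sample 436).

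Summed signals of slow fibre and regeneration markers were above the controls when Csrp3 rose late after freeze, and in part at other times too. The summed signal of 8 slow fibre markers was 15734 to 16820 at 7 days after freeze, against 12013 to 13751 in controls. It was 5331 to 5489.7 at 3 days after freeze without sample 436 and 10550 to 17842.5 at 7 days after contraction. At 7 days after freeze 4 of the 8 rose (3.65% of probe sets did). The summed signal of 9 myoblast and regenerating fibre markers was 12854 to 14035 at 7 days after freeze, against 5571 to 7135 in controls, and 6 of the 9 rose. It was 6988.5 to 12141 at 7 days after contraction. At 6 hours it was 7773 to 9446 after freeze and 7375 to 10549 after contraction. At 3 days after freeze Csrp3 was at -0.06. There 3 of the 8 slow fibre markers and 4 of the 9 regeneration markers were called higher, beside 9.68% of probe sets. The slow fibre sum there was nonetheless below the controls on the arrays other than sample 436. Other sums also moved at 7 days after freeze. That of 7 fibroblast markers was 21296 to 21638, against 2726 to 5007 in controls. That of 12 macrophage and leukocyte markers was 6765 to 7293, against 607 to 861. The fast fibre sum was lower, at 95603 to 100634, against 121999 to 203990. The part of all these markers in the rise of Csrp3 was not tested.

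Xirp1, the gene of the actin-binding repair protein Xin, had a large and short rise. After freeze its signal was 13122, 16126 and 12249 at 6 hours, 5575, 4216 and 5345 at 1 day, 1162, 423 and 337 at 3 days and 1181 and 1113 at 7 days. After contraction it was 15439, 15721 and 18963 at 6 hours, 11522 and 14193 at 1 day, 1795, 2762 and 2217 at 3 days and 1087, 1051 and 1212 at 7 days, against 1149, 782 and 764 in controls. At 6 hours the arrays of the 2 injuries overlapped far above the controls, 15.4-fold after freeze (3.94 ± 0.31, adjusted p = 2.33e-08) and 18.6-fold after contraction (4.22 ± 0.31, 5.93e-09). At 3 days after freeze, sample 436 had 1162 units, just above the highest control, and the other 2 arrays lay below every control. The difference there was -0.67 ± 0.31 with all arrays (adjusted p = 0.136) and -1.20 ± 0.21 without sample 436 (7.72e-05, where 20.9% of probe sets fell). At 3 days after contraction it was still 1.32 ± 0.31 (adjusted p = 0.0155), a call lost without contraction sample 467 (adjusted p = 0.0515) or control 3 (0.0621). At 7 days the differences were 0.37 ± 0.35 after freeze and 0.33 ± 0.31 after contraction, with arrays that overlapped the controls.

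Fibre and leukocyte markers moved with the low Xirp1 signal at 3 days after freeze. The summed signal of 12 fast fibre markers was 33179 to 43352 on the 2 arrays without sample 436 and 204390 on sample 436, against 121999 to 203990.0 in controls. That of 12 macrophage and leukocyte markers was 23888 to 24829 on the 2 arrays and 524 on sample 436, against 607 to 861 in controls. In whole muscle, fewer fibres and less RNA per fibre cannot be told apart. The part of these markers in the differences at 3 days was not tested, and at that time after contraction, when 5 of the 6 genes were raised, the fast fibre sum was 73918 to 100571 and the leukocyte sum 9149.6 to 12787.

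Enah, the gene of the actin filament elongation factor Mena, passed the test at fewer times than the other 4 genes that rose early. After freeze its signal was 425, 2139 and 613 at 6 hours, 197, 174 and 190.4 at 1 day, 130.2, 169 and 219 at 3 days and 385 and 386 at 7 days. After contraction it was 3884, 2398 and 2353 at 6 hours, 1300.0 and 1409.6 at 1 day, 285, 371 and 198 at 3 days and 351, 235 and 306 at 7 days, against 173, 195 and 133 in controls. The freeze arrays at 6 hours were uneven, since sample 432 held 2139 units and the other 2 held 425 and 613. The rise at 6 hours was 4.71-fold after freeze (2.24 ± 0.38, adjusted p = 0.000642; 1.56 without sample 432, adjusted p = 0.0011) and 15.8-fold after contraction (3.98 ± 0.38, 3.11e-07). At 1 day Enah was at 0.17 ± 0.38 after freeze (adjusted p = 0.802), with arrays that overlapped the controls, and 2.94 ± 0.42 after contraction (0.000177). At 3 days it was at 0.03 ± 0.38 after freeze (0.20 ± 0.40 without sample 436) and 0.70 ± 0.38 after contraction (0.245). At 7 days every array of both injuries was above every control, as in 23.1% of probe sets after freeze and 8.31% after contraction. The difference was 1.16 ± 0.42 after freeze (adjusted p = 0.103, and 0.0455 without sample 436) and 0.78 ± 0.38 after contraction (0.539).

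Enah had 2 further probe sets, both dimmer. The _f_at probe set read 162, 351 and 184 units after freeze and 438, 338 and 319.8 after contraction at 6 hours, against 92.3, 69 and 112 in controls. The _s_at probe set read 86.2, 201 and 128 after freeze and 407, 241 and 113 after contraction, against 2.8, 8.6 and 5.1 in controls, and it was above the filter level on 11 of 25 arrays. Its controls lay below the constant of 13 units and below the filter level, and it passed the filter through the groups in which it was high, so its values are given as a description with no test. The _f_at probe set rose at 6 hours by 1.18 ± 0.25 after freeze (adjusted p = 0.00642) and 1.87 ± 0.25 after contraction (5.78e-05). Sample 432 was the highest freeze array at 6 hours in all 3 probe sets. At 7 days after freeze the _s_at probe set read 50.5 and 54.2 units and the _f_at probe set 109 and 118.

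**Figure D2:**
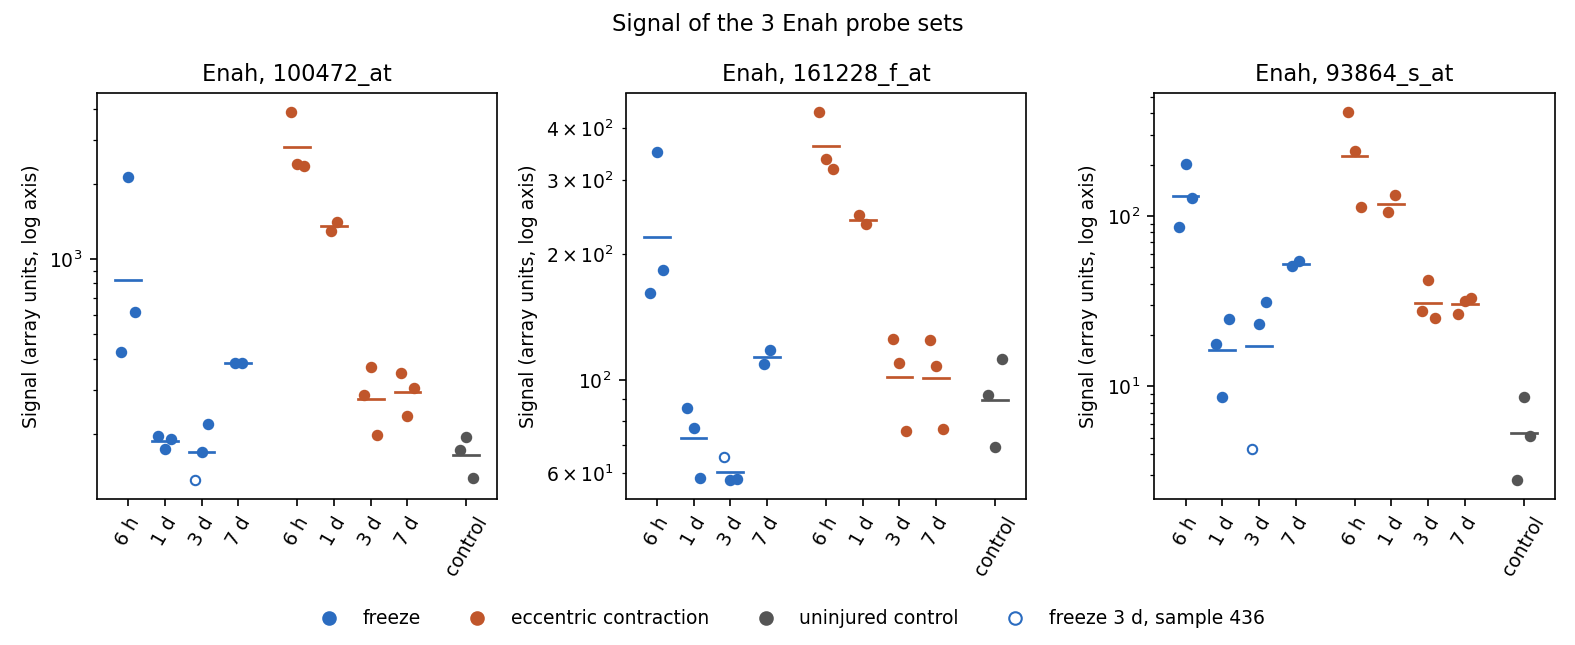
Signal in array units (log axis) of the 3 Enah probe sets on each of 25 arrays, with points for arrays, bars for the mean on the scale log2(signal + 13), freeze groups on the left, contraction groups in the middle and controls on the right. By group mean all 3 probe sets are highest at 6 hours after contraction, and on the _s_at probe set the controls hold 2.8 to 8.6 units.

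Mybph, the gene of the thick filament protein myosin binding protein H, followed another course. After contraction it was called higher at 1 and 3 days but not at 6 hours, with its peak at 1 day, and it was low early after freeze. After freeze its signal was 351, 552 and 207 at 6 hours, 309, 269.6 and 285 at 1 day, 1212, 763 and 816 at 3 days and 1377 and 1553 at 7 days. After contraction it was 1319, 605 and 789 at 6 hours, 2937 and 3671 at 1 day, 1458, 2129.8 and 2779.9 at 3 days and 2032, 1828 and 1491 at 7 days, against 857, 540.3 and 792 in controls. At 1 day the 3 freeze arrays lay below every control, as in 17.7% of probe sets, and the 2 contraction arrays above, as in 14.1%. The Mybph signal in whole muscle thus moved in opposite directions after the 2 injuries. The difference was -1.28 ± 0.31 after freeze (adjusted p = 0.0102) and 2.18 ± 0.35 after contraction (0.000702). At 6 hours it was -1.03 ± 0.31 after freeze (adjusted p = 0.0634, and 0.0215 without sample 436) and 0.26 ± 0.31 after contraction (0.883). The signal stayed above control at 3 days after contraction (1.50 ± 0.31, adjusted p = 0.00741), when freeze had a difference of 0.34 ± 0.31 (0.14 ± 0.32 without sample 436). At 7 days every array of both injuries was above every control, as in 23.1% of probe sets after freeze and 8.31% after contraction. The difference was 1.02 ± 0.35 after freeze (adjusted p = 0.0879, and 0.03 without sample 436) and 1.29 ± 0.31 after contraction (0.0749, and 0.0138). At 1 day after freeze the fast fibre sum was 73279 to 121506, against 121999 to 203990 in controls. The sum of myoblast and regenerating fibre markers was 3392 to 4134, against 5571 to 7135, and the slow fibre sum, 7561 to 12420, overlapped the controls. The part of these markers in the low Mybph signal was not tested.

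**Figure D3:**
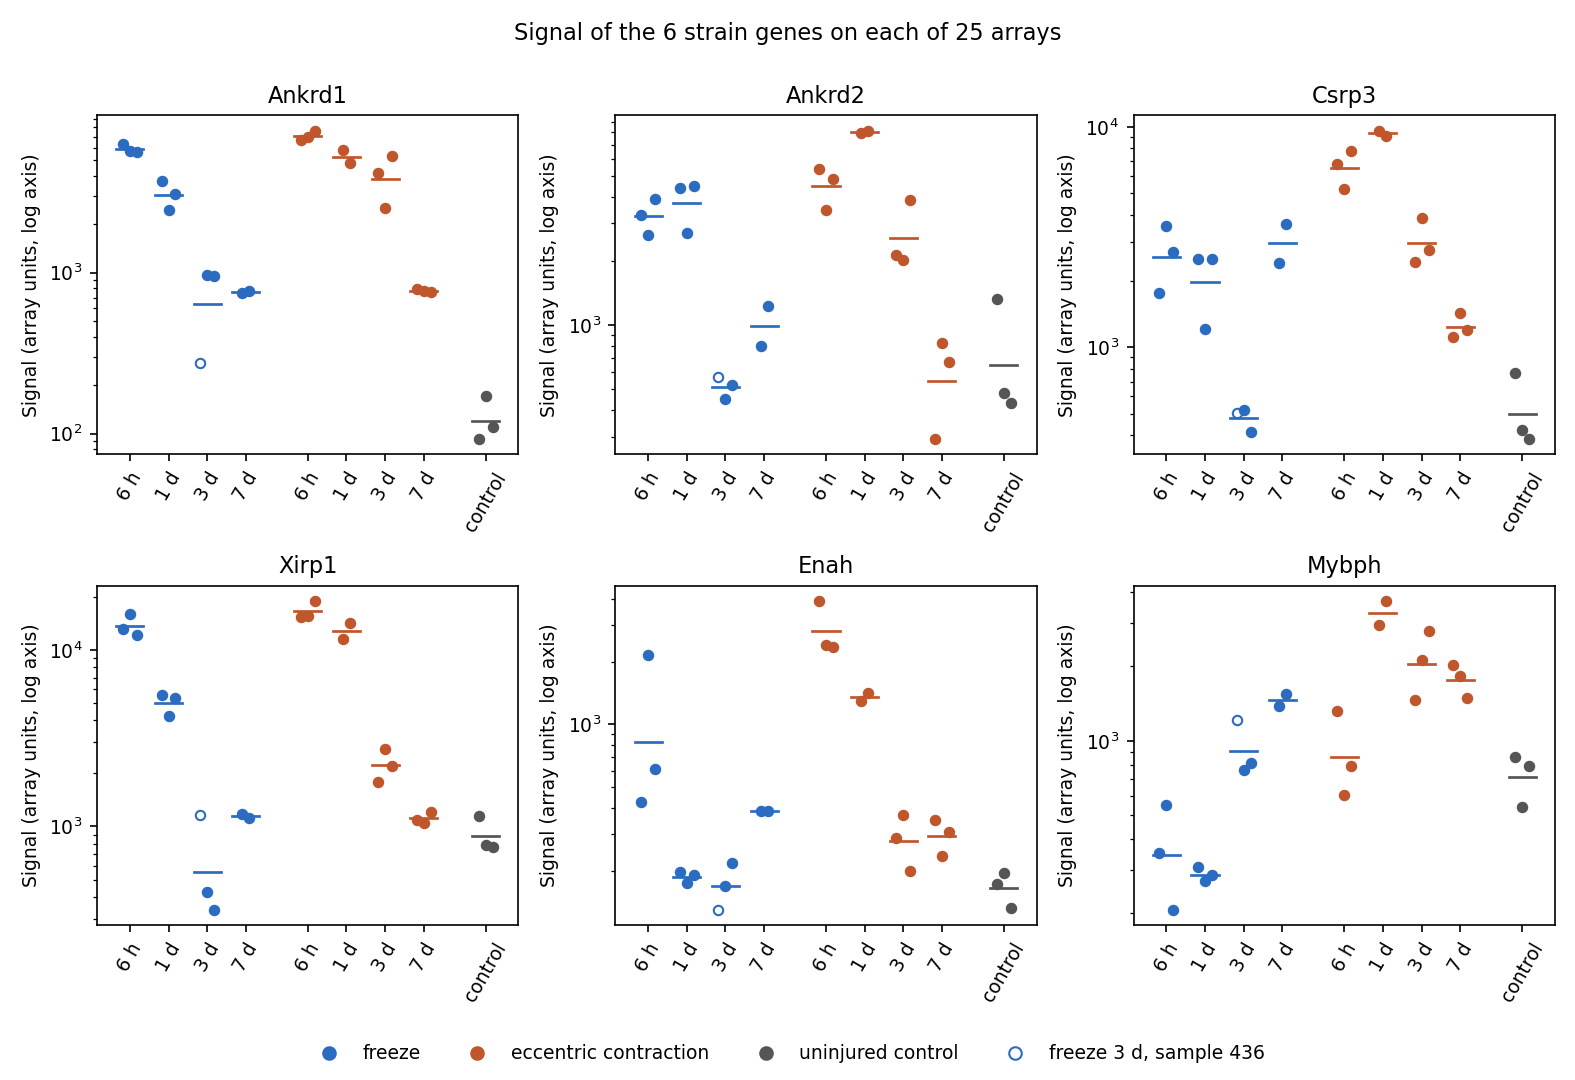
Signal in array units (log axis) of the 6 genes on each of 25 arrays, with freeze groups on the left, contraction groups in the middle and controls on the right of each panel, points for arrays (open for sample 436) and bars for the mean on the scale log2(signal + 13). By group mean all 6 genes are highest at 6 hours or 1 day after contraction, and Mybph is lowest at 6 hours and 1 day after freeze.

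Freeze set against contraction gave lower levels of Enah at 6 hours, of Mybph, Csrp3 and Enah at 1 day, and of Ankrd1, Ankrd2, Csrp3 and Xirp1 at 3 days. At 6 hours 4 of the 6 genes had every freeze array below every contraction array, as 8.57% of probe sets did, and Enah passed the test (0.0526% of probe sets were called lower). At 1 day all 6 genes had every freeze array lower (20.9% of probe sets did), and 3 were called lower (0.736%). At 3 days 5 genes had every freeze array lower (5.43% did), and 4 were called lower (0.347%). At 7 days no gene was called by limma (1 at an unadjusted p under 0.05, and 35 of 9506 probe sets, 0.368%, were called). Without sample 436 the called falls numbered 3 at 6 hours, 5 at 1 day and 5 at 3 days, beside 0.582%, 3.76% and 8.17% of probe sets, and Csrp3 was called higher at 7 days, where 5.69% were. The falls gained were Csrp3 (-1.34) and Mybph (-1.29) at 6 hours, Ankrd1 (-0.79) and Xirp1 (-1.35) at 1 day, and Mybph at 3 days.

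Of the 24 differences between the injuries that of Mybph at 1 day was the largest. There freeze stood at 309, 269.6 and 285 units, against 2937 and 3671 after contraction (-3.46 ± 0.35, adjusted p = 1.44e-05). Csrp3 was lower after freeze, at -2.24 ± 0.35 at 1 day (adjusted p = 0.000997) and -2.61 ± 0.31 at 3 days (0.000337; -2.65 without sample 436). Enah gave -1.74 ± 0.38 at 6 hours (adjusted p = 0.0494) and -2.77 ± 0.42 at 1 day (0.000765). The Enah call at 6 hours was lost without 22 of the 25 arrays in turn, and its value was -1.28 without sample 418 and -2.42 without sample 432. The _f_at probe set of Enah gave -0.69 ± 0.25 at 6 hours (adjusted p = 0.365) and -1.57 ± 0.28 at 1 day (0.00429).

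Summed signals of leukocyte markers were higher after freeze than after contraction at the first times. At 6 hours the summed signal of 12 macrophage and leukocyte markers was 2804 to 5228 after freeze, against 819 to 1753 after contraction, and at 1 day it was 7064 to 9521 after freeze, against 1317 to 2154 after contraction. The median difference of these markers at 1 day was 2.05, with 0 of 12 called by limma with all arrays (8 at an unadjusted p under 0.05) and 12 called higher without sample 436 (6.45% of probe sets were). The summed signal of 7 neutrophil markers was 1898 to 3348 after freeze at 1 day, against 443 to 478 after contraction. The fast fibre sum at 1 day was 73279 to 121506 after freeze, against 109071 to 129254 after contraction. The part of these markers in the differences of the 6 genes was not tested.

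With all arrays the ankyrin repeat genes and Xirp1 passed the test between injuries at 3 days only. At 1 day the differences were -0.79 for Ankrd1, -1.10 for Ankrd2 and -1.35 for Xirp1. Without sample 436 Ankrd1 and Xirp1 were called lower there too, beside 3.76% of probe sets. At 3 days Ankrd1 was lower after freeze, at -2.57 ± 0.34 (adjusted p = 0.000519), or -1.98 ± 0.24 (1.42e-05) without sample 436. Ankrd2 was at -2.28 ± 0.39 (adjusted p = 0.00506; 0.000361 without sample 436 and 0.068 without sample 467), and Xirp1 was at -1.99 ± 0.31 (0.00251; -2.52 without sample 436). At 6 hours the 95% interval of the difference was -0.99 to 0.44 for Ankrd1, -1.27 to 0.34 for Ankrd2 and -0.93 to 0.38 for Xirp1, so these 3 were not shown to differ and differences up to those bounds remain possible. At 7 days the intervals were -0.82 to 0.78 for Ankrd1 and -0.69 to 0.77 for Xirp1, and the arrays of the 2 injuries overlapped in both. The differences of Mybph and Enah at 3 days, -1.16 ± 0.31 (adjusted p = 0.155) and -0.67 ± 0.38 (0.733), did not pass, and without sample 436 Mybph did (-1.36 ± 0.32, 0.00456). When the fit held only the 2 groups compared, the 4 calls at 3 days were lost, with adjusted p of 0.470 (Csrp3) to 0.998 (Ankrd1 and Xirp1). At 7 days Csrp3 and Enah had both freeze arrays above all 3 contraction arrays, as 22.1% of probe sets did, without passing the test. The difference was 0.38 ± 0.42 for Enah (adjusted p = 0.749) and 1.25 ± 0.35 for Csrp3 (0.14, and 0.0213 without sample 436).

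**Figure D4:**
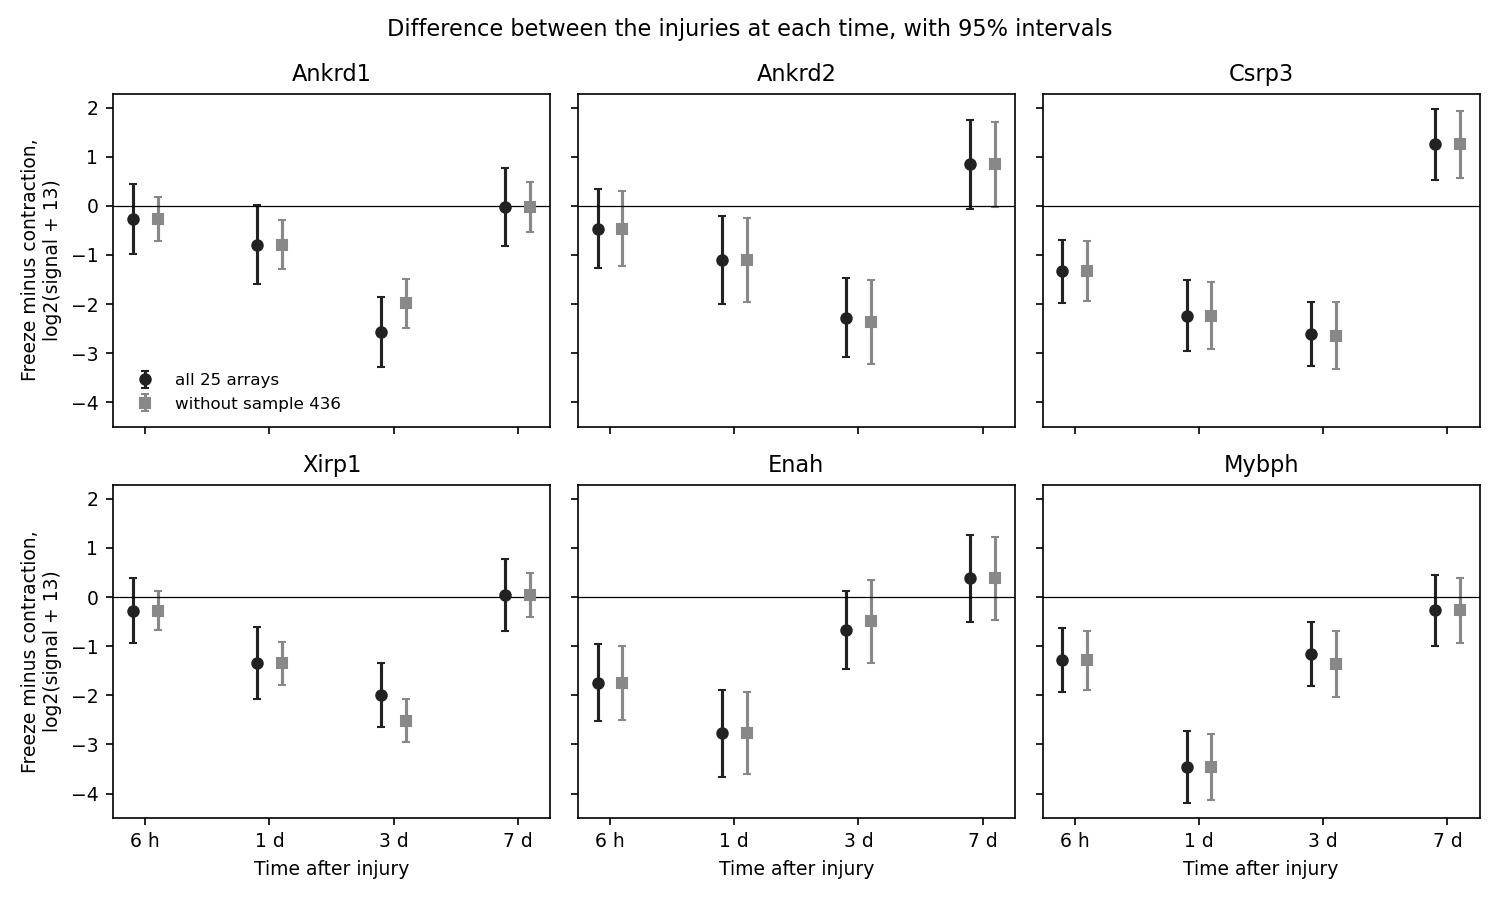
Difference between the injuries, freeze minus contraction on the scale log2(signal + 13), for the 6 genes at the 4 times, with 95% intervals, circles for all 25 arrays and squares without sample 436. Values are below 0 for all 6 genes at the first 3 times. At 7 days Csrp3, Ankrd2, Enah and Xirp1 (0.04) are above 0, and no gene is called there with all 25 arrays.

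The difference between the injuries depended on time in 5 of the 6 genes by limma's F test of the injury by time interaction, as it did in 0.589% of probe sets. The adjusted p was 0.000959 for Csrp3, which ranked 2 of 9506, 0.00843 for Mybph, 0.0351 for Ankrd1, 0.0351 for Enah, 0.0416 for Ankrd2 and 0.0902 for Xirp1. Without sample 436 all 6 passed, Xirp1 at 5.9e-05, where 4.49% of probe sets did. When each of the 25 arrays was left out in turn, Csrp3 passed all 25 times, Mybph 24, Ankrd1 and Enah 10 each, Ankrd2 8 and Xirp1 1.

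Steps between neighbouring times show where each gene turned. Between 6 hours and 1 day after freeze Xirp1 and Enah fell, with differences of -1.45 ± 0.31 (adjusted p = 0.0123) and -2.07 ± 0.38 (0.00369), where 1.28% of probe sets fell. The Xirp1 call was lost without freeze sample 460 (adjusted p = 0.0598) or 432 (0.0691), and without sample 432 the Enah difference was -1.39 (0.0124). Between 1 and 3 days after freeze 4 genes fell, with differences of -2.23 ± 0.34 for Ankrd1, -2.84 ± 0.39 for Ankrd2, -2.02 ± 0.31 for Csrp3 and -3.15 ± 0.31 for Xirp1, beside 1.61% of probe sets, and Mybph rose by 1.62 ± 0.31 (adjusted p = 0.00567, 0.494% rose). All 5 calls held without sample 436 (8.89% of probe sets fell and 9.33% rose), at -1.65, -2.92, -2.06, -3.68 and 1.42. After contraction Mybph rose between 6 hours and 1 day by 1.92 ± 0.35 (adjusted p = 0.0455, 0.0421% of probe sets rose), a call lost without 17 of the 25 arrays in turn. Between 1 and 3 days Csrp3, Xirp1 and Enah fell, with differences of -1.65 ± 0.35, -2.52 ± 0.35 and -2.24 ± 0.42 (adjusted p = 0.0189, 0.000359 and 0.00797, 0.831% of probe sets fell). The Csrp3 and Enah calls there were lost without sample 421 or 463, the only 2 arrays of contraction at 1 day, and that of Csrp3 also without contraction sample 435 or 467. Between 3 and 7 days Ankrd1 and Ankrd2 fell, with differences of -2.29 ± 0.34 and -2.19 ± 0.39 (adjusted p = 0.00229 and 0.00621, 0.473% fell), and the Ankrd2 call was lost without contraction sample 467 (0.0699). Without sample 436, 5 further steps passed. Ankrd1 fell between 6 hours and 1 day after freeze (-0.95 ± 0.22, adjusted p = 0.00437, beside 5.67% of probe sets), and Xirp1 rose between 3 and 7 days after freeze (1.57 ± 0.23, 6.18e-05, beside 8.27%). After contraction Ankrd2 fell between 1 and 3 days (-1.65 ± 0.41, adjusted p = 0.0119, beside 3.85%), and Csrp3 (-1.25 ± 0.29, 0.00568) and Xirp1 (-0.99 ± 0.19, 0.00104) fell between 3 and 7 days, beside 7.92%.

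Over the 9 group means, Ankrd1, Ankrd2, Csrp3, Xirp1 and Enah followed each other at Pearson correlations of 0.691 (Ankrd2 and Enah) to 0.922 (Ankrd2 and Xirp1). Those of Mybph with the 5 were -0.159 to 0.33. These points share their arrays and the early times that follow both injuries, and no p is given. Of 6915 genes searched, the one most like Ankrd1 was Rrad, a small GTPase gene (r = 0.980), and the one most like Xirp1 was Rcan1, a calcineurin regulator gene (0.982), followed by Hbegf and Srxn1. Cryab, the gene of the small heat shock protein of the Z-disc, was most like Ankrd2 (0.960), and Hspb8, another small heat shock protein gene, was most like Csrp3 (0.938). Aopep, an aminopeptidase gene, was most like Enah (0.994), and Tmem199 most like Mybph (0.903). Tmem199 was dim, with 82.8 to 129.9 units at 1 day after contraction, against 53.3 to 111 in controls. At 6 hours Rrad read 4724 to 7559 units after freeze and 2622 to 4611 after contraction. A high r thus does not show a like difference between the injuries. The first-ranked gene was the same without sample 436 for all but Mybph, and the same over the 25 single arrays for all but Mybph, whose closest gene there was Cacng1 (0.802).

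Among partners of these proteins on titin and the Z-disc, Cryab was called higher. Of 30 such genes 13 had a probe set that was tested, and with all arrays Cryab was the only one called higher in an injured group (without sample 436 Pdlim3 and Des were too). Cryab rose by 1.32 and 1.20 at 6 hours and 1 day after freeze, and by 1.75, 2.22 and 1.40 at 6 hours, 1 day and 3 days after contraction. At 3 days after freeze 6 of the 13 fell (8.18% of probe sets fell), among them Ldb3 (-2.22 ± 0.54), a Z-disc scaffold gene, and Nrap (-1.75 ± 0.39), a gene of myofibril assembly. The median of the 13 was -1.04, against -0.09 over all probe sets. Without sample 436, 10 of the 13 fell there (20.9% of probe sets fell), and at 3 days after contraction 5 fell and 2 rose (9.74% and 13.1%). Fast fibre markers fell in the same comparison with freeze at 3 days, 6 of 12 with all arrays and 12 of 12 without sample 436, and their part in the falls of these genes was not tested.

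The nearest protein relatives on the array were Csrp1 and Csrp2, of the LIM family of Csrp3, Evl and Vasp, of the family of Enah, and Mybpc3, the cardiac relative of Mybph. With all arrays Csrp1, Csrp2 and Evl were called higher at some times after freeze, and Vasp and Mybpc3 at none of them. Csrp2 rose at 3 days (2.70 ± 0.73, adjusted p = 0.0204; 4.22 without sample 436) and 7 days (3.81 ± 0.82, 0.0116). Csrp1 rose at the same times (1.11 ± 0.29 and 1.17 ± 0.32), when Csrp3 was at -0.06 and 2.54. Evl rose at 1 day (1.64 ± 0.53) and 3 days (2.14 ± 0.53), when Enah was at 0.17 and 0.03. With all arrays 3 of the 5 rose at 3 days after freeze (9.68% of probe sets did), and without sample 436 4 did (21.7%). After contraction no relative was called with all arrays by limma, with 2 of the 5 at an unadjusted p under 0.05 at 3 days and 0 at the other times, and without sample 436 Csrp2 (1.85), Evl (1.58) and Vasp (0.77) rose at 3 days. Mybpc3 was not called in any injured group, with values of -1.15 at 7 days after freeze and -0.36 at 1 day after contraction.

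Of 33 adhesion and actin assembly genes 25 were tested. After freeze 2 rose and 1 fell at 6 hours (3.33% of probe sets rose), and 7 rose at 1 day (9.15%). At 3 days 5 rose and 2 fell (9.68% and 8.18%), or 12 and 4 without sample 436 (21.7% and 20.9%). The rises at 1 day were led by Actn1 (2.49 ± 0.41), the non-muscle alpha-actinin, and Cfl1 (2.10 ± 0.54), cofilin. Macrophage and leukocyte markers rose on the same arrays, 9 of 12 of them with a median of 2.95, and their part in the rise of the adhesion genes was not tested. After contraction 0 were called at 6 hours by limma (3 at an unadjusted p under 0.05), 2 rose at 1 day (1.63%), namely Vcl (1.21 ± 0.24), vinculin, and Itga7 (1.06 ± 0.25), the laminin-binding integrin of fibres, and 4 rose at 3 days (5.67%). Of 31 genes that respond to stretch, SRF or YAP 29 were tested. After freeze 14 rose at 6 hours (3.33% of probe sets), and 15 rose and 1 fell at 1 day (9.15% and 5.06%). After contraction 11 rose at 6 hours (1.63%) and 10 at 1 day (1.63%), with Fos (5.83 ± 0.45 after freeze and 6.75 ± 0.45 after contraction at 6 hours) and Egr1 (3.94 ± 0.29 and 3.69 ± 0.29) among them. At 1 day 4 of the 29 were lower after freeze than after contraction (0.736% of probe sets were), led by Fos (-3.55 ± 0.50) and Ccn1 (-2.75 ± 0.31). All 6 strain genes had every freeze array lower at that time, as 20.9% of probe sets did. A link between the 2 lists was not tested.

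**Figure D5:**
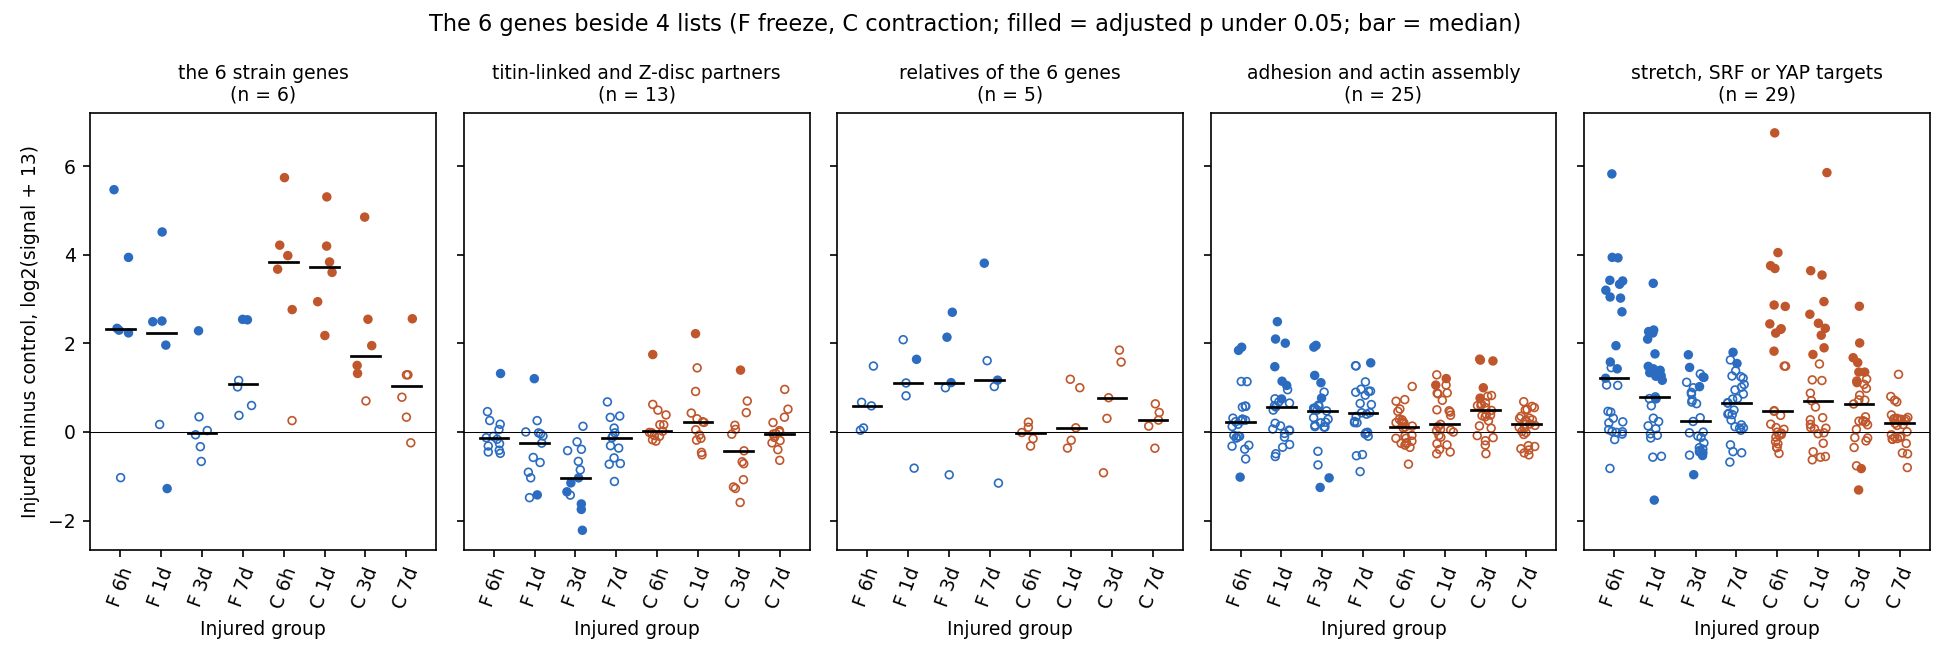
Difference from uninjured control on the scale log2(signal + 13) of each tested gene of 5 lists, with 1 panel for the 6 strain genes and 1 for each of the 4 other lists, F for freeze and C for contraction, filled points at an adjusted p under 0.05 and bars for the median of a list. The median of the strain genes is 2.32 at 6 hours after freeze and 3.83 at 6 hours after contraction, and that of the titin-linked and Z-disc partners is -0.13 and 0.02.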

How the data were processed

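RNA of whole tibialis anterior muscles was hybridised to Affymetrix MG-U74Av2 arrays, 1 array per sample. The authors deposited linear signal intensity values per probe set, made with MAS5 per the submitters' processing notes, its version not given in the sources used here. Of 12488 probe sets, 66 Affymetrix controls were left out, and 10833 carried 1 gene symbol, 396 several and 1193 none. From these values log2(signal + 13) was computed, and a probe set was kept (9506 were) if its signal passed the array's 40th percentile in 2 or more samples. The 9 group means were fitted together with limma 3.58.1 in R 4.3.3 (16 residual and 5.46 prior degrees of freedom, median residual SD 0.385 on the log2 scale), with trended empirical Bayes, two-sided tests and Benjamini-Hochberg adjustment within each comparison. The model was tested on simulated data. The number of arrays, 2 or 3 a group, limits the precision. Named were all 6 genes and, from each list of other genes, those with the largest called changes, with Des, Pdlim3, Egr1, Mybpc3 and Vasp added after their values were seen. The 6 genes and the lists were chosen with earlier results of these data known. Alternatives covered the pseudocount, scaling, filter, model, probe sets, threshold and each array left out. Sample numbers are those of the labels, and adjacent numbers were tried as a random block. Promoter windows are RefSeq's.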

Additional observations from a re-analysis of the deposited data

Results flagged for a closer look

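The difference between freeze and contraction depended on time in 5 genes, by limma's F test of the injury by time interaction over the 4 times. The adjusted p was 0.000959 for Csrp3, 0.00843 for Mybph, 0.0351 for Ankrd1, 0.0351 for Enah and 0.0416 for Ankrd2. In Csrp3 the difference of freeze minus contraction was -1.34, -2.24, -2.61 and 1.25 at the 4 times, early to late. Its sign turned at the last time, as in Enah and Ankrd2, without a call there in any of them with all arrays. In Mybph the difference was -1.29, -3.46, -1.16 and -0.27. In Ankrd1 it was -0.27, -0.79, -2.57 and -0.02, in Enah -1.74, -2.77, -0.67 and 0.38, and in Ankrd2 -0.46, -1.10, -2.28 and 0.84. Without sample 436 the 5 adjusted p were 8.93e-05, 0.00114, 0.0041, 0.00655 and 0.0111 in the order first given. With each of the 25 arrays left out in turn, Csrp3 passed 25 times, Mybph 24, Ankrd1 and Enah 10 each and Ankrd2 8.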

How the results depend on the processing

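Of 52 results that passed the test with all arrays, 44 kept their call without each array in turn, and no called value changed sign under any alternative. The genes called numbered 30 of 48 against control (29 to 36 with each array left out), 8 of 24 for freeze minus contraction (6 to 14), 14 of 36 between neighbouring times (11 to 19), 6 for any injured group (6 each time) and 5 for the interaction (1 to 6). The highest of these came without sample 436, and the lowest without contraction sample 467 or control 3, without 467, without contraction samples 421 or 463, and, for the interaction, without 463. Array weights, which gave sample 436 a weight of 0.0768, called 15 between injuries and 22 between times. For the interaction 3 were called without a trend in the variance, 3 with adjacent sample numbers as a random replicate block and 2 at an adjusted p under 0.01. Those numbers do not mark pairs in the labels, deviations of adjacent samples correlated at -0.356 to 0.155, and the block correlation was -0.0937. Fitting only the groups compared ended the calls that involve freeze at 3 days, with an adjusted p of 0.339 for Ankrd1 against control, 0.0568 to 0.324 for the steps between 1 and 3 days and 0.473 for Csrp3 between 3 and 7 days. Steps between times that were lost without 1 array included Xirp1 between 6 hours and 1 day after freeze (adjusted p = 0.0598 without sample 460 and 0.0691 without 432), Ankrd2 between 3 and 7 days after contraction (0.0699 without 467), Csrp3 and Enah between 1 and 3 days after contraction (without 421 or 463, and Csrp3 also without 435 or 467) and Mybph between 6 hours and 1 day after contraction (without 17 of the arrays). The Enah call at 6 hours between injuries was also lost with the mean of its probe sets (-1.05, adjusted p = 0.166). The causes were not tested.

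The log2 differences that changed sign had all missed the threshold. Under quantile normalization they were Enah at 3 days after freeze (-0.017) and Ankrd1 at 7 days between injuries (0.011), under median centring Xirp1 at 7 days between injuries (-0.054), and under array weights the freeze steps of Enah between 1 and 3 days (0.056) and of Ankrd1 between 3 and 7 days (-0.30). With each array left out, the range against control was -0.62 to 0.17 for Ankrd2, -0.25 to 0.24 for Csrp3 and -0.14 to 0.20 for Enah at 3 days after freeze. It was -0.050 to 0.50 for Mybph at 6 hours and -0.54 to 0.26 for Ankrd2 at 7 days after contraction. Between injuries at 7 days it was -0.048 to 0.00051 for Ankrd1 and -0.0019 to 0.0998 for Xirp1. Between times after freeze it was -0.59 to 0.086 for Mybph at 1 day minus 6 hours, -0.31 to 0.036 for Enah at 3 days minus 1 day and -0.33 to 0.54 for Ankrd1 at 7 minus 3 days. After contraction at 7 minus 3 days it was -0.14 to 0.29 for Enah and -0.46 to 0.0060 for Mybph.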
